A study of Mus musculus with 19 samples.

Results

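The genes described here are 43 components of TGF-beta, activin and BMP signaling, taken as every array probe that carries one of their symbols, and 40 of them were among the 20804 genes tested. RNA was measured on 19 single-color Agilent mouse arrays, 1 for each mouse, from sorted CD24+CD29lo mammary luminal cells (LCs), a gate that holds both hormone-sensing and progenitor luminal cells. All mice were C57Bl/6N females of 8 weeks, ovariectomized at 24 days by the labels, given a hormone pellet 10 days later and treated for 21 days. C451A-ERα mice carry a germline point mutation at the palmitoylation site of the estrogen receptor ERα, through which part of the receptor is held at the membrane, and every cell of these mice carries it. The groups were C451A-ERα with E2+Pg (n = 5), wild-type with E2+Pg (n = 5), C451A-ERα with E2 (n = 5) and wild-type with E2 (n = 4), where E2 is 0.01 mg of 17-beta-estradiol and E2+Pg adds 1.5 mg of progesterone, both as pellets releasing over 60 days. The genotype cannot be read from the arrays, and the p-values measure the spread between mice.

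TGF-beta ligands are secreted in a latent form, held by latent TGF-beta binding proteins in the matrix, and act through type II and type I serine/threonine kinase receptors on Smad2 and Smad3. Activins use the same Smads through activin receptors, while most BMPs act on Smad1 and Smad5, and both branches share Smad4. In the mammary gland TGF-beta is known to restrain ductal growth, and Id genes are known targets of BMP signaling.

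Levels are log2 values of the median probe signal after quantile normalization, and cannot be compared between genes, since each probe has its own brightness. The filter asked for a probe well above background on 4 of the arrays or more. A gene was called where limma gave a Benjamini-Hochberg adjusted p under 0.05 over all genes tested with a fold change above 1.5. Bmp5 and Bmp6, BMP ligands, and Grem1, a BMP antagonist, did not pass that filter. Of the 43 genes, 38 were well above background on all 19 arrays. The 19 arrays lay on 5 slides, each with 1 mouse of every group except slide 3, which had no wild-type mouse with E2. Between 26473 and 31259 probes were well above background per array. Mouse L72, a wild-type mouse with E2, stood apart from the other mice of its group for several of the genes below. The calls that changed when it was left out are given with and without it. Over all genes, C451A-ERα mice L18 (E2+Pg), L4 (E2) and L27 (E2) correlated less with the rest of their group (0.967, 0.974 and 0.9796) than L72 did (0.9803). So did wild-type mouse L21 with E2+Pg (0.978). In the array weights used as an alternative below, L4, L27 and L18 had 0.24, 0.28 and 0.30. Wild-type mice L21 and L57 had 0.505 and 0.56, and L72 had 0.62. All 6 pan-luminal markers were well above background on all arrays, as were all 9 basal and all 6 fibroblast markers, so the sort did not leave those markers absent. As a mean log2 deviation from the average of all arrays, L18 was the highest mouse for basal (0.86) and the lowest for pan-luminal markers (-0.34).

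The 3 probes below are those read for the TGF-beta and BMP ligands with calls, shown so that the transcript read is plain. They lie on the mm9 build at chr1:188449333-188449392 (minus strand, Tgfb2), chr7:26489877-26489936 (plus strand, Tgfb1) and chr5:99308890-99308949 (plus strand, Bmp3), and are printed 5′ to 3′ with no part marked.
Tgfb2: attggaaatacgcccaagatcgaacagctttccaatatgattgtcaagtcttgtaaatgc
Tgfb1: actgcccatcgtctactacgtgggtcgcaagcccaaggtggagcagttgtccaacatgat
Bmp3: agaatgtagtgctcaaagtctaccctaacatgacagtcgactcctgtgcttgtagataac

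Tgfb2, a TGF-beta ligand, and Ltbp2, a matrix protein of the latent TGF-beta binding family, rose with progesterone in C451A-ERα LCs. They were the only members called in that comparison (2 of 40, or 5%, against 2.45% of all genes tested) and in the comparison averaged over genotypes (2 of 40, against 3.77%). In wild-type mice limma called 0 of the 40 members, against 1.31% of all genes. There 10 of 40 members had an unadjusted p under 0.05, against 16.2% of all genes.

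Tgfb2 was at 10.92, 11.69, 12.25, 11.20 and 11.91 in C451A-ERα mice with E2+Pg, against 9.68, 10.07, 9.36, 9.72 and 9.94 in C451A-ERα mice with E2. All 5 mice with E2+Pg lay above all 5 with E2. The difference was 1.84 on the log2 scale (SE 0.26, 3.58-fold, adjusted p = 0.0015, limma), and the exact permutation test gave p = 0.00794 (two-sided), the smallest that 5 against 5 mice allow. Tgfb2 was higher with E2+Pg on 5 of 5 slides, by 1.25 to 2.88. That count and the exact p follow from the lack of overlap and are no separate support. In wild-type mice Tgfb2 was at 11.64, 12.02, 11.32, 11.47 and 11.17 with E2+Pg and at 10.93, 11.26, 10.07 and 10.38 with E2. Those groups overlapped by 1 mouse, and the difference of 0.86 (SE 0.27, adjusted p = 0.118) was not called, though Tgfb2 was higher with E2+Pg on 4 of 4 slides. The difference between the genotypes in that response was 0.98 (SE 0.37, adjusted p = 0.472 for the interaction) and is not established. Averaged over genotypes, Tgfb2 was higher with E2+Pg by 1.35 (SE 0.19, adjusted p = 0.000328). An exact permutation of the treatments within genotypes, added after the fits were seen, gave p = 6.3e-05 over its 31752 arrangements. Between genotypes under E2, Tgfb2 was lower in C451A-ERα mice by 0.91 (adjusted p = 0.147), without overlap, and by 1.1 without L72 (adjusted p = 0.0279). The groups were barely apart, with the highest C451A-ERα mouse, L58, at 10.071 and the lowest wild-type mouse, L72, at 10.075. The second Tgfb2 probe gave 1.72 for E2+Pg against E2 in C451A-ERα and 0.78 in wild-type mice.

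Ltbp2 was at 11.19, 12.42, 11.64, 11.07 and 11.62 in C451A-ERα mice with E2+Pg, against 10.12, 10.34, 10.11, 10.34 and 9.96 in C451A-ERα mice with E2. The 2 groups did not overlap, and the difference was 1.41 (SE 0.23, 2.66-fold, adjusted p = 0.00374, limma; exact p = 0.00794, two-sided). In wild-type mice Ltbp2 was at 11.42, 11.65, 11.76, 11.05 and 11.66 with E2+Pg and at 10.80, 11.38, 10.41 and 10.31 with E2. The wild-type groups overlapped, with a difference of 0.78 (SE 0.25, adjusted p = 0.122). Averaged over genotypes, Ltbp2 was higher with E2+Pg by 1.1 (SE 0.17, adjusted p = 0.000754).

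**Figure D1:**
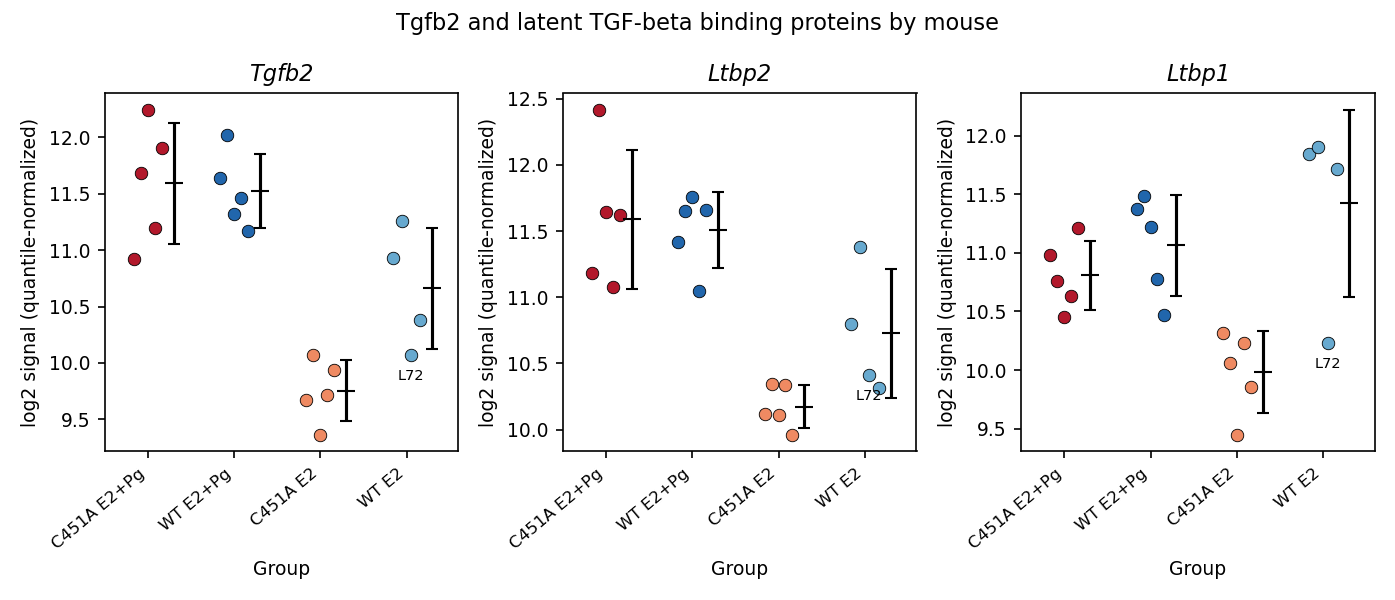
Log2 signal of Tgfb2, Ltbp2 and Ltbp1 (y axis) by mouse and group (x axis), bars beside the points giving mean and SD and L72 marked. For Tgfb2 and Ltbp2 the 5 C451A-ERα mice with E2+Pg sit above the 5 C451A-ERα mice with E2, and for Ltbp1 L72 at 10.23 sits below the other 3 wild-type mice with E2.

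Luminal hormone-sensing markers moved the other way with progesterone: all 7 were measured on every array, and 6 of the 7 were called lower with E2+Pg averaged over genotypes. Their summed signal was 24127 to 76917 in C451A-ERα and 27001 to 57525 in wild-type mice with E2+Pg, against 90594 to 143255 in C451A-ERα and 55712 to 130297 in wild-type mice with E2. Such a sum weighs the brightest probes most. As a mean log2 deviation from the average of all arrays, these markers were at -0.53 in C451A-ERα and -0.48 in wild-type mice with E2+Pg. With E2 that mean was 0.70 in C451A-ERα and 0.38 in wild-type mice. Background was not subtracted from these signals, so no marker could read 0. In bulk samples fewer cells of a type and less RNA per cell cannot be told apart, and the part of these markers in the Tgfb2 and Ltbp2 differences was not tested.

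The promoters of Tgfb2, Ltbp2 and Ltbp1 are shown because Tgfb2 and Ltbp2 rose together with progesterone and Ltbp1, of the same family as Ltbp2, had no call there. Ltbp1 was still 0.83 higher with E2+Pg in C451A-ERα mice, without overlap, and limma called it without L72 (adjusted p = 0.0372). The 3 promoters are RefSeq sequences of the GRCm38.p6 build, 250 bases before and 50 after each start site, at chr1:186705940-186706239 (minus strand, Tgfb2), chr12:84876442-84876741 (minus strand, Ltbp2) and chr17:75005279-75005578 (plus strand, Ltbp1, the first of its 2 promoters). Capitals mark matches on either strand to any of 3 motifs that were added after the promoter letters were read. The E-box was searched for as CACGTG, without overlap with the others. The motif that positions many start sites, called the TATA box, was searched for as TATAAA in the same windows. The cAMP response element, bound by CREB family factors, was searched for as TGACGTCA and is its own reverse complement.
Tgfb2: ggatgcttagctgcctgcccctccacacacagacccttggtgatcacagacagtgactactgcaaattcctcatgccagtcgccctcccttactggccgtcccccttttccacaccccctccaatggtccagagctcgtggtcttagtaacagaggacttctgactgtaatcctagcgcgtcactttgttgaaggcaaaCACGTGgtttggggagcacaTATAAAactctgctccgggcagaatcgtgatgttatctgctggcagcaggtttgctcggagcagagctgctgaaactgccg
Ltbp2: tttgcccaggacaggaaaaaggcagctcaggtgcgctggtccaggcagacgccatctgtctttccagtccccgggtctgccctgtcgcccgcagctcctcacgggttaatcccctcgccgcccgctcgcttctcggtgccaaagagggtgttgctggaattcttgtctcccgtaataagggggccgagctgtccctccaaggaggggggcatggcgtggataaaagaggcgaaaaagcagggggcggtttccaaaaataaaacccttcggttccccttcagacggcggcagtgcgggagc
Ltbp1: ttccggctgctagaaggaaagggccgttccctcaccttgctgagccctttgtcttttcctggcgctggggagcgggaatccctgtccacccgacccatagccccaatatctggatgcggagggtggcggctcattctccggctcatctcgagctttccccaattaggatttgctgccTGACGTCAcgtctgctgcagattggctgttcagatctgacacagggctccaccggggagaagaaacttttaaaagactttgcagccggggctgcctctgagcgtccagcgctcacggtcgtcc

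Of 32851 promoters in the table, 7.15% held the E-box, 13.6% the TATA box and 1.79% the cAMP response element on either strand. Of the 42 member promoters, 4 held the E-box, 3 the TATA box and 1 the cAMP response element. The second Ltbp1 promoter, not printed, held none of the motifs searched for. The progesterone and glucocorticoid receptor half-site AGAACA stood in 19% of all promoters and in 4 of the 42 promoters of the 30 members that have one. The estrogen receptor half-site AGGTCA stood in 16.3% of all promoters and in 3 of the 42, the SMAD box GTCTAGAC in 0.213% and in 1, and the GC-rich SMAD motif GGCGCC in 11.9% and in 11. None of those 4 motifs was found in the promoters of Tgfb2, Ltbp2, Tgfb1 or Ltbp1, which says only that these letters are not in these windows.

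Tgfb1, Ltbp1 and Bmp3 were lower in C451A-ERα mice, and they were called only when the treatments were averaged. In that comparison 3 of the 40 members were called, all lower in C451A-ERα (7.5%, against 2.28% of all genes). Under either treatment alone limma called 0 of the 40, against 0.0288% of all genes under E2 and 0.00481% under E2+Pg. Of the hormone-sensing markers 2 of 7 were called in the averaged genotype comparison, Cited1 higher by 1.27 and Prom1 lower by 0.66, and of the 9 basal and 6 fibroblast markers none was (limma, with 1 basal and 0 fibroblast markers at an unadjusted p under 0.05). The summed basal signal, which weighs the brightest probes most, was 23331 to 36440 in C451A-ERα and 18839 to 33970 in wild-type mice with E2+Pg. With E2 it was 20352 to 34607 in C451A-ERα and 29102 to 41576 in wild-type mice. The mean log2 deviation of the basal markers was -0.07 in C451A-ERα and -0.14 in wild-type mice with E2+Pg. With E2 that deviation was -0.0026 in C451A-ERα and 0.27 in wild-type mice. The part of these markers in the genotype differences was not tested. By unadjusted p under 0.05, 9 of 40 differed under E2, against 13.6% of all genes, and 10 of 40 under E2+Pg, against 18.3%.

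Tgfb1, the main TGF-beta ligand of many tissues, was at 7.45, 7.62, 7.71, 7.98 and 8.11 in C451A-ERα mice with E2+Pg, against 8.66, 8.56, 8.27, 9.05 and 8.16 in wild-type mice with E2+Pg. Every C451A-ERα mouse with E2+Pg lay below every wild-type mouse with E2+Pg. The difference was -0.77 (SE 0.20, adjusted p = 0.119, limma; exact p = 0.00794, two-sided). With E2 Tgfb1 was at 8.65, 7.86, 8.69, 8.38 and 8.74 in C451A-ERα mice, against 9.05, 8.82, 8.71 and 9.39 in wild-type mice, a difference of -0.53 (SE 0.21, adjusted p = 0.276). Averaged over treatments the difference was -0.65 (SE 0.15, adjusted p = 0.0259), lower in C451A-ERα in 9 of 9 pairs of mice on the same slide, and the exact permutation within treatments gave p = 0.000126. The pairs with E2+Pg had to be lower, since those groups did not overlap. The second Tgfb1 probe read -0.54 for that difference. With progesterone Tgfb1 was lower by 0.57 averaged over genotypes (adjusted p = 0.0225), below the fold limit, so it was not called, and the second probe read -0.22. That difference was called without each of L57, L50, L58, L53, L47, L72 and L63 (adjusted p = 0.00713 to 0.0294). The call over treatments was lost with slide as a block (adjusted p = 0.0518), and without each of the mice L56, L57, L67, L50, L58, L76, L47 and L52 (adjusted p = 0.0489 to 0.0786, with the fold under the limit where the p passed).

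Bmp3, a BMP family ligand, was at 6.64, 8.52, 7.03, 8.18 and 5.05 in C451A-ERα mice with E2+Pg, against 10.28, 9.38, 8.61, 8.93 and 8.78 in wild-type mice with E2+Pg. The groups did not overlap, and the lowest mouse, L63, was not well above background. The difference was -2.11 (SE 0.54, 4.32-fold, adjusted p = 0.114, limma). Bmp3 was lower on 5 of 5 slides, and the exact permutation test gave p = 0.00794 (two-sided). Both follow from the lack of overlap. With E2 Bmp3 was at 8.38, 6.26, 7.0, 6.72 and 6.71 in C451A-ERα mice, against 8.69, 8.24, 7.54 and 8.56 in wild-type mice, a difference of -1.24 (SE 0.57, adjusted p = 0.348). Averaged over treatments the difference was -1.68 (SE 0.39, adjusted p = 0.0289; exact permutation p = 0.000819), and the other 2 probes read -1.77 and -1.59. The call was lost with slide as a block (adjusted p = 0.0518), with Agilent's processed signal (adjusted p = 0.0747), and without each of L56, L57, L67, L62, L50, L58, L76, L51 and L52 (adjusted p = 0.054 to 0.0817).

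Ltbp1 was at 10.98, 10.76, 10.46, 10.63 and 11.21 in C451A-ERα mice with E2+Pg, against 11.38, 11.49, 11.22, 10.77 and 10.47 in wild-type mice with E2+Pg. With E2 it was at 10.32, 10.06, 9.45, 10.23 and 9.85 in C451A-ERα mice, against 11.85, 11.90, 10.23 and 11.71 in wild-type mice. The 10.23 of the wild-type group is mouse L72, level with the C451A-ERα mice. Under E2 the difference was -1.44 (SE 0.30, adjusted p = 0.114), and -1.84 without L72 (adjusted p = 0.000327). Under E2+Pg it was -0.26. In C451A-ERα mice Ltbp1 was 0.83 higher with E2+Pg than with E2, without overlap (adjusted p = 0.124, and 0.0372 without L72). Averaged over treatments Ltbp1 was lower by 0.85 (SE 0.21, adjusted p = 0.0364; exact permutation p = 0.00611). That call was lost with slide as a block, with no background filter, with the mean of its probes (-0.54, adjusted p = 0.0631), and without each of 14 mice (adjusted p up to 0.0993), all but L4, L18, L72, L63 and L21. The other 3 Ltbp1 probes read -0.28 to -0.55 for the averaged difference.

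**Figure D2:**
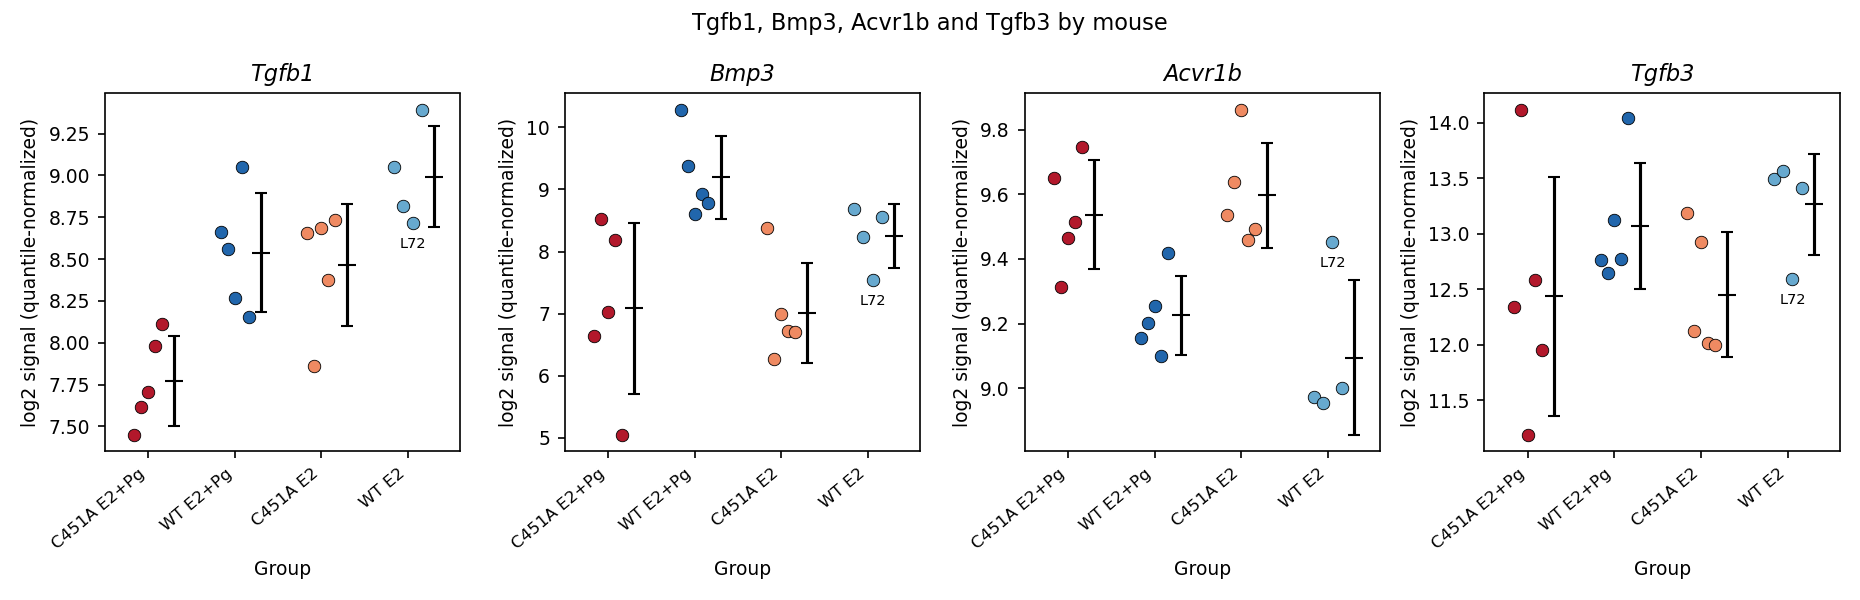
Log2 signal of Tgfb1, Bmp3, Acvr1b and Tgfb3 (y axis) by mouse and group (x axis), bars beside the points giving mean and SD and L72 marked. With E2+Pg the C451A-ERα mice lie below the wild-type mice for Tgfb1 and Bmp3 without overlap, and for Tgfb3 the groups overlap.

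Acvr1b, a type I activin receptor, was higher in C451A-ERα mice by the probe used, without reaching the fold limit. It was at 9.54, 9.64, 9.86, 9.46 and 9.49 in C451A-ERα mice with E2, against 8.97, 8.95, 9.45 and 9.0 in wild-type mice with E2, the 9.45 being L72. The groups did not overlap, though L72 lay just under the lowest C451A-ERα mouse. The difference was 0.50 (SE 0.13, adjusted p = 0.123) and 0.62 without L72 (adjusted p = 0.00759). With E2+Pg it was at 9.65, 9.31, 9.46, 9.51 and 9.75 in C451A-ERα mice, against 9.16, 9.20, 9.26, 9.10 and 9.42 in wild-type mice. Averaged, the difference was 0.41 (SE 0.09, adjusted p = 0.0231), higher in 9 of 9 slide pairs. The pairs with E2 had to be higher, since those groups did not overlap. The second Acvr1b probe, well above background on 14 arrays, read 0.16 averaged and -0.08 under E2+Pg. The averaged adjusted p was 0.0957 with the mean of both probes, 0.0779 with the processed signal and 0.056 with slide as a block. Tgfb3, a TGF-beta ligand, was at 12.34, 14.12, 11.19, 12.58 and 11.95 in C451A-ERα mice with E2+Pg, against 12.76, 12.64, 13.13, 12.78 and 14.04 in wild-type mice with E2+Pg. With E2 it was at 13.18, 12.12, 12.93, 12.02 and 12.00 in C451A-ERα mice, against 13.49, 13.57, 12.59 and 13.41 in wild-type mice, the 12.59 being L72. Groups overlapped under both treatments. The difference was -0.63 under E2+Pg (adjusted p = 0.398), and between -0.32 without L61 and -1.05 without L18, both C451A-ERα mice. Under E2 it was -0.82 (adjusted p = 0.455), and -1.04 without L72 (adjusted p = 0.259). Averaged over treatments it was -0.72 (adjusted p = 0.214; exact permutation p = 0.0367), lower in 8 of 9 slide pairs, and it was called without L18 (-0.93, adjusted p = 0.037).

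Bmp1, a procollagen C-proteinase despite its name, was at 11.86, 11.02, 11.57, 11.73 and 11.42 in C451A-ERα mice with E2+Pg, against 12.44, 11.86, 11.51, 11.61 and 11.64 in wild-type mice with E2+Pg. With E2 it was at 11.87, 12.15, 11.98, 11.97 and 12.19 in C451A-ERα mice, against 11.97, 11.65, 12.12 and 11.90 in wild-type mice. The genotype differences were -0.29 under E2+Pg (adjusted p = 0.355) and 0.12 under E2 (adjusted p = 0.82). The other 2 Bmp1 probes read -0.84 and -0.31 under E2+Pg, and -0.04 and -0.10 under E2, so the probes disagree on the size under E2+Pg and on the sign under E2. In C451A-ERα mice Bmp1 was 0.51 lower with E2+Pg, without overlap, and not called (adjusted p = 0.118; exact p = 0.00794). Its other probes read -0.58 and -0.13 for that difference. Bmp2, a BMP ligand, was at 6.25, 6.77, 6.46, 6.13 and 6.86 in C451A-ERα mice with E2+Pg, 6.02, 6.29, 5.91, 6.53 and 5.85 in wild-type mice with E2+Pg, 6.67, 5.93, 5.70, 6.15 and 6.07 in C451A-ERα mice with E2, and 6.90, 6.81, 6.16 and 6.46 in wild-type mice with E2. Its interaction was 0.86 (SE 0.29, adjusted p = 0.472).

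**Figure D3:**
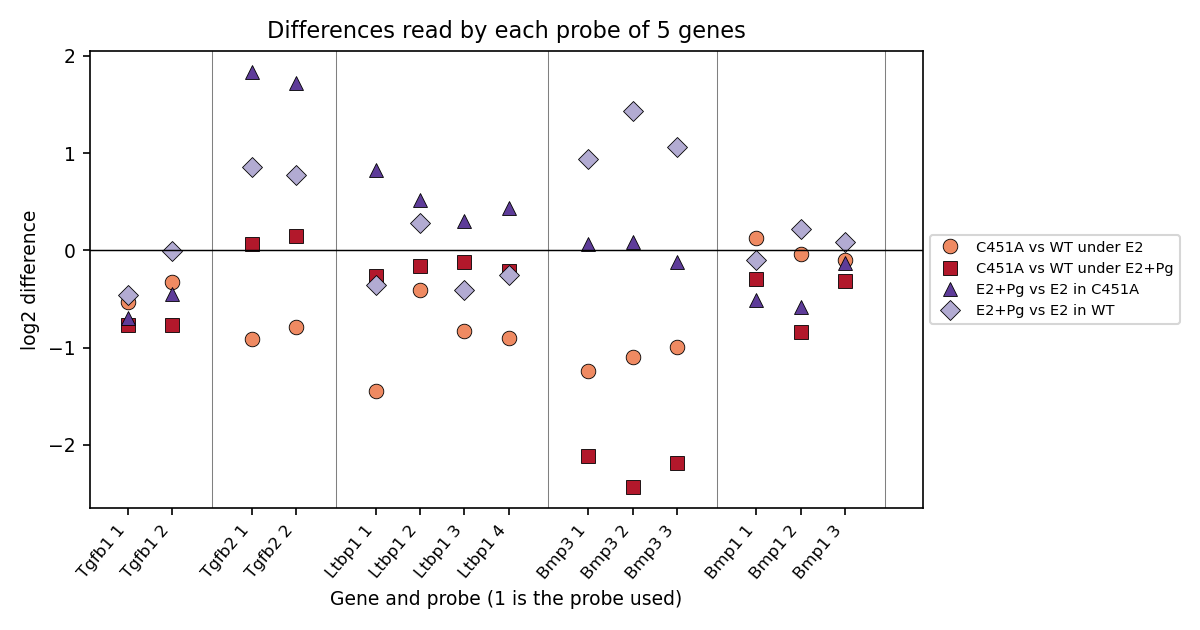
Log2 difference (y axis) read by each passing probe of Tgfb1, Tgfb2, Ltbp1, Bmp3 and Bmp1 (x axis, probe 1 being the one used) in the 4 comparisons, which the symbols stand for. All 3 Bmp3 probes read the genotype difference under E2+Pg between -2.11 and -2.44, and the Ltbp1 probe used reads a larger difference under E2 than the other 3.

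Of the interaction of genotype and progesterone, limma called 0 of 40 members, against 0% of all genes, and 5 of 40 had an unadjusted p under 0.05, all positive, against 9.36% of all genes. They were Bmp2, Ltbp1 at 1.18, Tgfb2, Id1 at 1.40 and Skil at 0.75, each with adjusted p = 0.472. Id1, an inhibitor of differentiation that BMPs induce, gave a mean of 8.68 in C451A-ERα and 7.94 in wild-type mice with E2+Pg, against 8.57 in C451A-ERα and 9.22 in wild-type mice with E2. In wild-type mice its E2+Pg and E2 groups did not overlap, at a difference of -1.28 (adjusted p = 0.101).

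Whether differences of Inhba, an activin subunit, were called depended on 1 mouse, and they kept their sign and were larger without it. Inhba was at 9.21, 6.83, 8.93, 8.68 and 8.86 in C451A-ERα mice with E2+Pg and 9.11, 9.02, 8.29, 8.45 and 6.90 in wild-type mice with E2+Pg, against 8.21, 9.30, 7.66, 9.18 and 9.64 in C451A-ERα mice with E2 and 11.21, 11.23, 8.00 and 11.59 in wild-type mice with E2. The 8.00 is L72. The progesterone difference in wild-type mice was -2.15 (adjusted p = 0.118) and -2.99 without L72 (adjusted p = 0.00618), and the genotype difference under E2 was -1.71 (adjusted p = 0.267) and -2.55 without L72 (adjusted p = 0.0125). Averaged over genotypes the progesterone difference was -1.22 (adjusted p = 0.125) and -1.64 without L72 (adjusted p = 0.00996). Inhbb, the other activin subunit, was higher in C451A-ERα by 0.94 averaged over treatments (adjusted p = 0.0777), in 8 of 9 slide pairs, and was called without L72 (1.15, adjusted p = 0.0088) or L21 (1.11, adjusted p = 0.0132). Under E2 its difference was 0.97 (adjusted p = 0.307), and 1.40 without L72 (adjusted p = 0.0407).

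The receptor Smads and Smad4 (Smad1, Smad2, Smad3, Smad4 and Smad5) differed by -0.39 to 0.65 in the 4 comparisons of 2 groups, and none was called. The inhibitory Smad6 and Smad7 and the ubiquitin ligases Smurf1 and Smurf2 ranged from -0.40 to 0.82 in those comparisons, without a call. The type I and II receptors Bmpr1a, Bmpr2, Tgfbr1, Tgfbr2, Acvr1 and Acvr2a ranged from -0.31 to 0.39, and the co-receptor Tgfbr3 from 0.04 to 0.64. Bmpr1b, a BMP type I receptor, differed between genotypes by -1.28 under E2+Pg (adjusted p = 0.173). Averaged over treatments its difference had an adjusted p of 0.0795, and it was called without L72 (-1.13, adjusted p = 0.0345), without L18 (-1.17, adjusted p = 0.0241) and without C451A-ERα mouse L4 (-1.18, adjusted p = 0.0189). Between genotypes under E2+Pg, Bmpr1b was called at -1.61 (adjusted p = 0.0371) without C451A-ERα mouse L18. In that same comparison without L18, Bmp3 was called at -2.47 (adjusted p = 0.0333), the activin receptor Acvr2b at -0.62 (adjusted p = 0.0421) and Smad3 at 0.94 (adjusted p = 0.0388). With progesterone Bmpr1b was higher by 1.05 in wild-type and 0.50 in C451A-ERα mice, without a call. Averaged over genotypes that difference was 0.78, not called, and it was called without L4 (0.95, adjusted p = 0.0428, limma). The binding proteins Ltbp3 and Ltbp4 ranged from -0.56 to 0.44, the ligands Bmp4 and Bmp7 from -0.42 to 0.38, and the co-repressors Tgif1 and Skil from -0.37 to 0.39. Id2 ranged from -0.07 to 0.78. The ranges here are of the probe used for each gene, and some other passing probes read outside them. Between genotypes under E2+Pg a Tgif1 probe read 0.93 (another 0.19), Skil probes 0.65 and 0.73, and the second Id2 probe 1.12. With progesterone in wild-type mice these probes read -0.63 (-0.12), -0.67 and -0.72, and -0.45. A Bmpr2 probe, well above background on 14 arrays, read -0.42 between genotypes under E2 and 0.57 under E2+Pg. It read -0.68 with progesterone in wild-type mice. The remaining Bmpr2 probe read 0.09, -0.06 and 0.13 in the same order. Id3 differed by -1.13 with progesterone in C451A-ERα mice (adjusted p = 0.068) and was called without L18 (-1.37, adjusted p = 0.0206). Averaged over genotypes its progesterone difference was -0.76 (adjusted p = 0.0591), called without L72 (-0.86, adjusted p = 0.0374) and without L18 (-0.88, adjusted p = 0.018). The secreted antagonists Fst and Nog differed by -0.43 to 0.13. The heat map of all 40 members shows these values beside those of the called genes.

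**Figure D4:**
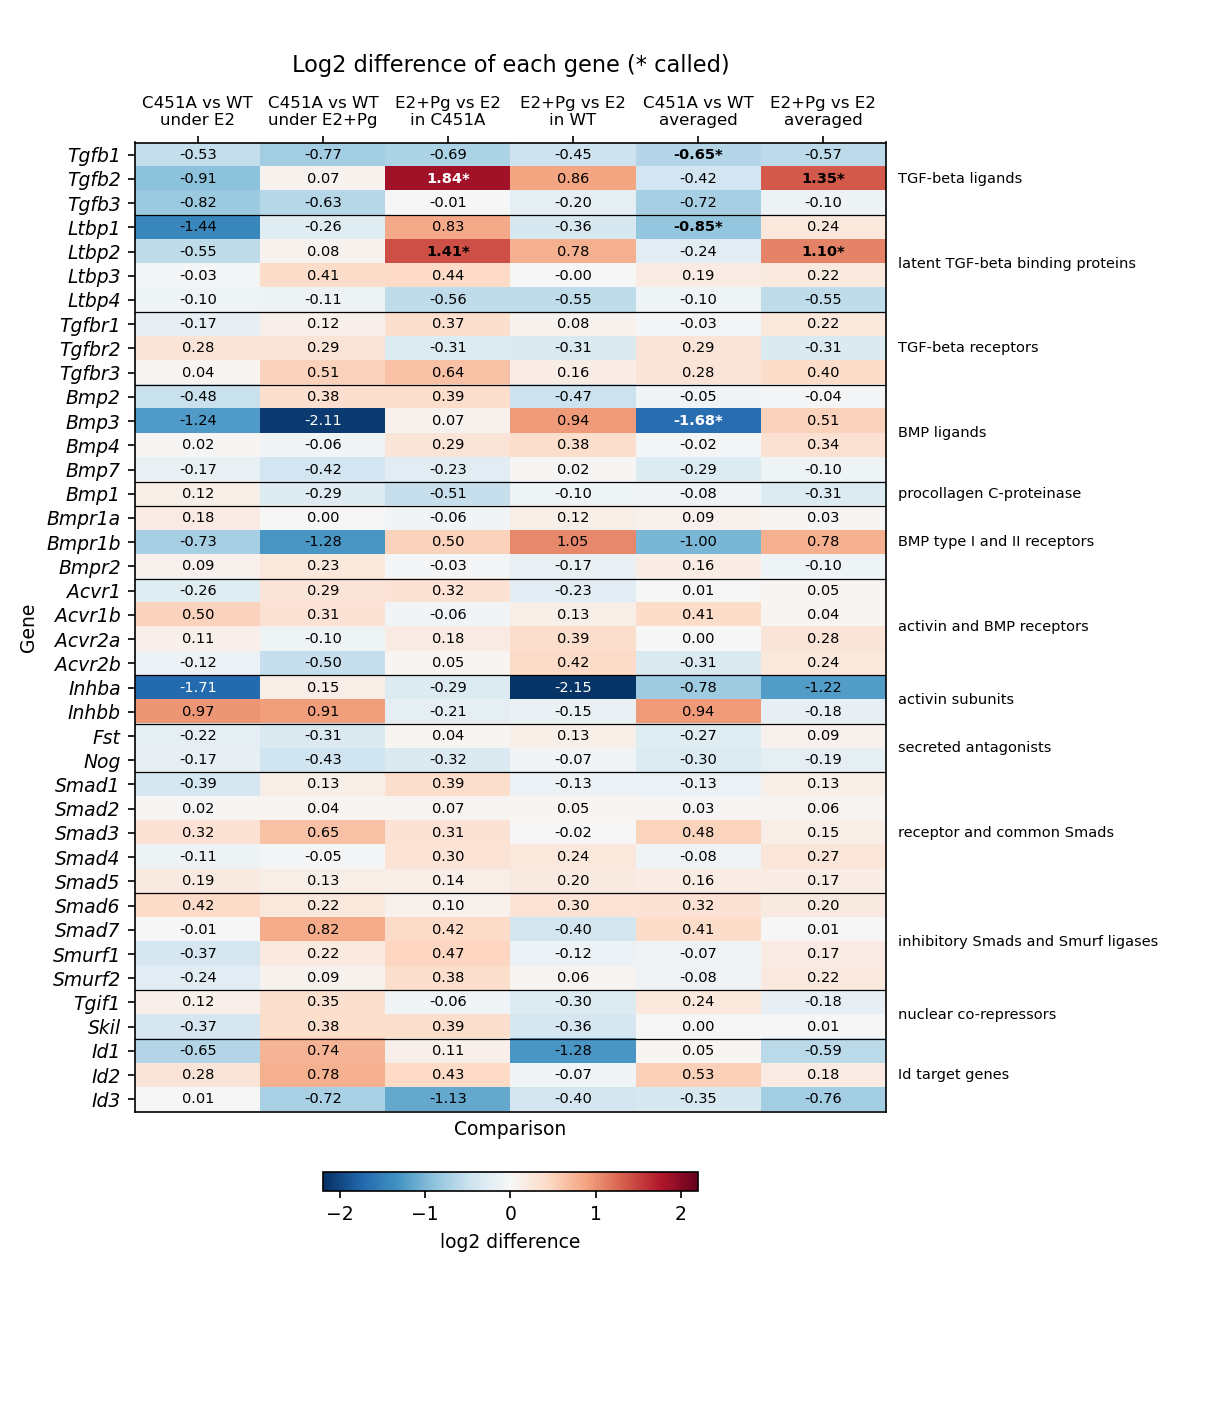
Log2 difference of each of the 40 members tested (rows, grouped by role) in 6 comparisons (columns), with the color scale in log2 units and a star where the difference was called. Stars stand at Tgfb2 and Ltbp2 for E2+Pg against E2 in C451A-ERα and averaged over genotypes, and at Tgfb1, Ltbp1 and Bmp3 for C451A-ERα against wild-type averaged over treatments.

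The differences with progesterone between mice of the same slide were positive in 9 of 9 pairs for Tgfb2 and Ltbp2. In C451A-ERα mice, where the groups of Tgfb2 and Ltbp2 did not overlap, any pairing gives that sign. The slide differences were not all of one sign for Tgfb3, which was higher in 4 of 9 pairs, or Bmp3, which was higher in 7 of 9.

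**Figure D5:**
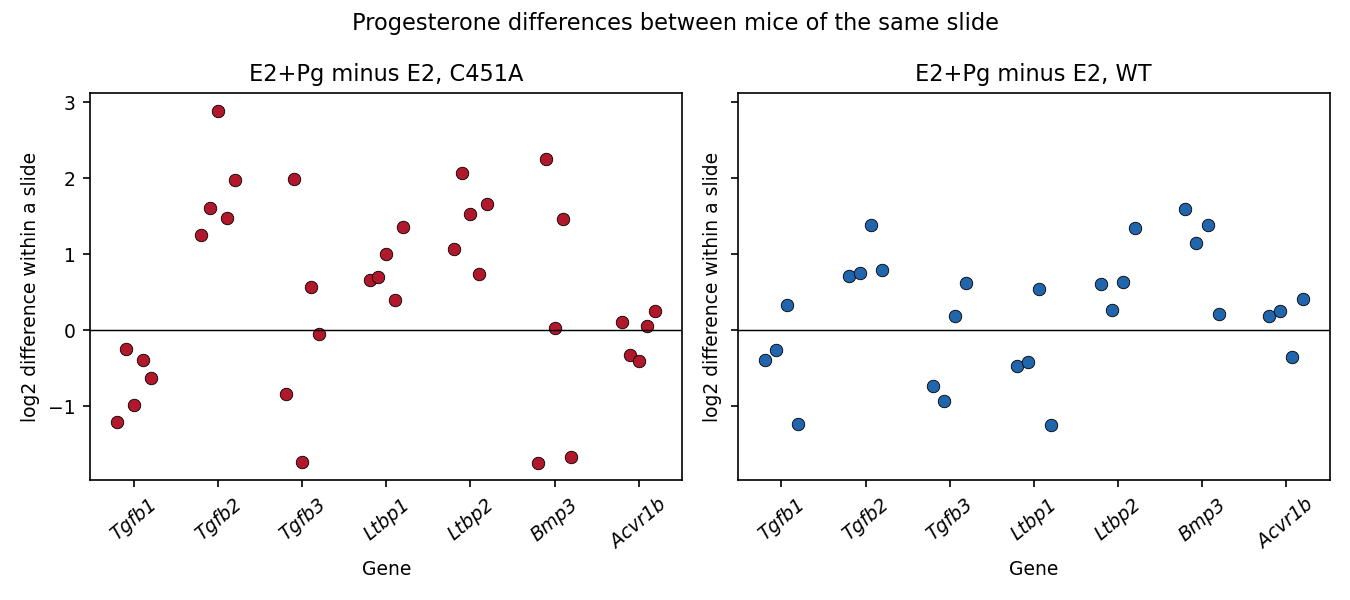
E2+Pg minus E2 log2 difference between mice of the same slide (y axis) for 7 genes (x axis), in C451A-ERα mice (left) and wild-type mice (right), 1 point for each slide. All points of Tgfb2 and Ltbp2 lie above 0 in both panels, and those of Tgfb3 lie on both sides. In the left panel the groups of Tgfb2 and Ltbp2 did not overlap, so any pairing gives points above 0.

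Of 71 other genes of the pathway, 59 were tested. With progesterone averaged over genotypes 7 were called, 5 higher and 2 lower (11.9%, against 3.77% of all genes). Thbs1, a thrombospondin that can activate latent TGF-beta, rose with progesterone in C451A-ERα mice by 1.78 (SE 0.29, adjusted p = 0.00312), at means of 13.47 with E2+Pg and 11.68 with E2, and its wild-type difference was 0.38 (adjusted p = 0.532). Fbn2, a fibrillin of the microfibrils that latent TGF-beta binding proteins attach to, rose in wild-type mice by 2.48 (SE 0.52, adjusted p = 0.026), at means of 9.03 with E2+Pg and 6.55 with E2, and its C451A-ERα difference was 1.67 (adjusted p = 0.0718). Itgb8, an integrin subunit that activates latent TGF-beta, rose in C451A-ERα mice by 0.77 (adjusted p = 0.0383), and its wild-type difference was 0.78 (adjusted p = 0.0652). Inha, the inhibin alpha subunit, fell in C451A-ERα mice by 0.67 (adjusted p = 0.0266), and its wild-type difference was -0.22 (adjusted p = 0.501). The interaction was called for 0 of the 59 other pathway genes (limma, with 10 at an unadjusted p under 0.05), so no such difference between the genotypes is established. The ligand Gdf5 rose in wild-type mice by 0.85 (adjusted p = 0.0446), and its C451A-ERα difference was 0.34 (adjusted p = 0.373). Averaged over genotypes, the co-receptor Rgma rose with progesterone by 1.11 (adjusted p = 0.0232), while the co-receptor Eng fell by 1.01 (adjusted p = 0.0229) and the BMP target Msx2 by 0.84 (adjusted p = 0.00642). Between genotypes 1 of the 59 was called (1.69%, against 2.28% of all genes), Fstl1, a secreted follistatin-like protein, lower in C451A-ERα by 1.56 averaged over treatments (SE 0.35, adjusted p = 0.0259).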

How the data were processed

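RNA of sorted LCs from 19 ovariectomized mice was hybridized to single-color arrays. Spot intensity was deposited as scanner output, written for the authors by Agilent Feature Extraction 10.10.1.1 per the submitters' processing notes. A processed table of log2 values, which the authors filtered, corrected for batch and quantile-normalized, served here only as an alternative. Median signals were converted to log2 and quantile-normalized over all arrays, 1370 outlier spots were left out, and no spot was saturated. A probe had to exceed background clearly on 4 arrays or more, and each gene was read from its brightest such probe. Groups came from the labels. A model of 4 group means was fitted with limma 3.58.1 in R 4.3.3 (15 residual degrees of freedom), two-sided, and tested on simulated data. Alternatives were the processed signal, normexp, the authors' table, 2 other filters, the mean of probes, slide as a block, array weights and leaving out each mouse.

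Members named with values per mouse were those called (at most 6 a comparison), the 2 of lowest adjusted p in each genotype comparison and the interaction, and Tgfb1, Tgfb3, Bmp1 and Bmp3; Inhba was added after its values were seen. Members and lists were chosen with earlier results of these data known. The exact permutation within treatments or genotypes and 3 of the 7 promoter motifs were added after the data were seen. The number of arrays limits the precision, and the labels carry no replicate numbers that pair mice.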

Additional observations from a re-analysis of the deposited data

Results flagged for a closer look

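Among 36 groups of 4 or 5 mice examined for the named members, 3 held 1 mouse far from the others, and each time it was wild-type mouse L72 with E2. L72 gave 10.23 for Ltbp1, where the other 3 mice gave 11.71 to 11.90, 9.45 for Acvr1b, where they gave 8.95 to 9.0, and 12.59 for Tgfb3, where they gave 13.41 to 13.57. Chance flags about 1 in 20 such groups, and groups of the same mice are not independent.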

How the results depend on the processing

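Tgfb2 and Ltbp2 kept their calls with progesterone, in C451A-ERα and averaged, under all 8 alternatives and without any 1 mouse. With array weights the members called were 10 under E2 and 5 under E2+Pg between genotypes, 5 and 2 with progesterone in C451A-ERα and wild-type mice, and 9 and 7 in the averaged genotype and progesterone comparisons. Of all 20804 genes, array weights called 2253 (10.8%) under E2 and 2660 (12.8%) under E2+Pg between genotypes, beside 25% and 12.5% of the 40 members. With progesterone they called 707 in C451A-ERα and 1884 in wild-type mice, and 2611 and 1179 in the averaged genotype and progesterone comparisons. With the authors' table the members called were 1 under E2, 4 with progesterone in C451A-ERα and 5 for the averaged genotype. Of the 19791 genes tested with that table, 132, 695 and 673 were called in the same comparisons. With slide as a block 0 members were called for the averaged genotype, beside 249 of all 20804 genes. Leaving out 1 mouse gave 0 to 5 members under E2, 0 to 4 under E2+Pg, 2 to 3 and 0 to 1 with progesterone in C451A-ERα and wild-type mice, 0 to 6 and 2 to 5 in the averaged genotype and progesterone comparisons, and 0 for the interaction. Of all genes, leaving out 1 mouse gave 0 to 1045 under E2 and 1 to 1100 under E2+Pg. With progesterone it gave 200 to 972 of all genes in C451A-ERα and 28 to 578 in wild-type mice. In the averaged genotype and progesterone comparisons it gave 5 to 997 and 578 to 912, and for the interaction 0 to 24. The 5 members under E2 came without L72, when 1045 of all genes were called. The 4 members under E2+Pg (Bmp3, Bmpr1b, Acvr2b and Smad3) came without C451A-ERα mouse L18, when 1100 genes were called. Over processing alternatives the genes called of all genes were 0 to 2253 under E2, 0 to 2660 under E2+Pg, 375 to 707 and 74 to 1884 with progesterone in C451A-ERα and wild-type mice, and 249 to 2611 and 639 to 1179 in the averaged genotype and progesterone comparisons. The Bmp1 difference under E2 turned to -0.00299 with the mean of its probes (adjusted p = 0.995). The cause of these changes was not tested. No paired analysis was possible because the labels give no replicate numbers, so pairs rest on slides alone: slide served as a block, and differences between mice of the same slide were counted.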
